A study of Mus musculus with 11 samples.

Results

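Scin, Nfe2, Bpifc, Adgrg3, Igfbp4, Litaf and Cd34 are 7 of the 13780 genes tested in sorted mouse thymocytes, and all 7 were far lower at the DN3 than at the DN2 stage. They were picked for this fall in WT cells, and Scin, Nfe2 and Bpifc were picked also because they were lower still in DN3 cells of Arpp21-/- mice and not in their DN2 cells. These choices used the values reported here. The fall in WT is therefore described for all 7 genes without a test, and so is every difference of Scin, Nfe2 and Bpifc. Tests are given only for Adgrg3, Igfbp4, Litaf and Cd34 in comparisons that include Arpp21-/- cells. The comparisons of KO with WT share WT libraries with the contrast that chose the genes, and the fall within KO does not. The choice had no numerical threshold.

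The 11 RNA-seq libraries came from double-negative thymocytes (DN, lacking CD4 and CD8). There were 3 from WT and 2 from Arpp21-/- (KO) mice at the DN2 stage, and 3 from each genotype at the DN3 stage. The mice are labelled C57BL/6J, the study's methods give a C57BL/6 background with the deletion made in embryos of C57BL/6N parents, and no treatment is named. The KO line carries a germline deletion of 1 Arpp21 exon, made with CRISPR/Cas9, that removes the long, RNA-binding form of the Arpp21 protein. The study blotted brain and thymus extracts and found more of a short form of the protein in KO thymocytes. Over the whole study, mice of both sexes and of 6 weeks to 1 year of age were used. The age, sex and mouse behind each library were not given in the sources used here, so the p-values measure only the spread between these libraries, which may be technical. DN cells were sorted by CD44 and CD25 after depletion of cells with CD4 or CD8, DN2 being CD44+ CD25+ and DN3 CD44- CD25+.

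At the DN2 stage thymocytes are still close to the multipotent progenitor that entered the thymus, and they keep transcripts that are also found in stem, myeloid and mast cells. Commitment to the T lineage, driven by Notch signals, silences these transcripts, and at the DN3 stage the cells rearrange the T cell receptor beta locus with the RAG recombinase. Arpp21 is an RNA-binding protein with a preference for uridine-rich stretches in 3' untranslated regions (3'UTRs).

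The 7 genes have unrelated products. Scin encodes scinderin (adseverin), a calcium-dependent protein of the gelsolin family that severs and caps actin filaments. Nfe2 encodes the large subunit of NF-E2, a basic leucine zipper transcription factor that pairs with small Maf proteins and is best known from platelet formation. Bpifc belongs to the family of bactericidal/permeability-increasing (BPI) proteins, whose founding members bind lipids of bacterial walls. Adgrg3 is an adhesion G protein-coupled receptor of granulocytes and other leukocytes, Igfbp4 a secreted protein that binds insulin-like growth factors, Litaf a small membrane protein of late endosomes and lysosomes, and Cd34 a sialomucin on the surface of hematopoietic progenitors.

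They lie on 7 chromosomes of GRCm38: Scin at chr12:40059769-40134228 (minus strand), Nfe2 at chr15:103248212-103258403 (minus), Bpifc at chr10:85959340-86011895 (minus), Adgrg3 at chr8:95017692-95045250 (plus), Igfbp4 at chr11:99041244-99054392 (plus), Litaf at chr16:10959275-11066157 (minus) and Cd34 at chr1:194938819-194961279 (plus). RefSeq (GRCm38.p6) promoter entries matched 6 of the 7 genes, all but Nfe2. The bases before the transcription start are printed for Scin and Bpifc, the 2 of these 6 chosen also for their lower level in DN3 KO. They are printed also for Adgrg3, whose DN3 libraries overlapped between genotypes. Igfbp4, not chosen for it, had a DN3 difference of KO from WT close to that of Bpifc (log2 -1.10 and -1.19). Scin covers 250 bases (chr12:40134229-40134478, minus strand), Adgrg3 250 bases (chr8:95017442-95017691, plus strand) and Bpifc 215 bases (chr10:86011896-86012110, minus strand), since the bases nearer to its start are exonic in another annotated transcript. Each runs 5' to 3' on the strand of the gene, and capitals mark matches to 1 of the 5 short motifs searched on both strands, AGATAA for GATA factors, TGTGGT for RUNX factors, AGGAAG for ETS factors, TGANTCA for NF-E2 and AP-1, and CAGNTG for the E-box.
Scin: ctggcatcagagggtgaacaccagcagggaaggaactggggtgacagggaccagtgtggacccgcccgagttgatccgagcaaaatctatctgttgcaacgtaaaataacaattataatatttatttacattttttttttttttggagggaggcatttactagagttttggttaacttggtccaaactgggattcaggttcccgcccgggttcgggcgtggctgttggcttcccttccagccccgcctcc
Bpifc: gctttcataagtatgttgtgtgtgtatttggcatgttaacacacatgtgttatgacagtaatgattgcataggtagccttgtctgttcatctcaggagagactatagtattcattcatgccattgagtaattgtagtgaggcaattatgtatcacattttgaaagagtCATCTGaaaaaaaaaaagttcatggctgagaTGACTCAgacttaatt
Adgrg3: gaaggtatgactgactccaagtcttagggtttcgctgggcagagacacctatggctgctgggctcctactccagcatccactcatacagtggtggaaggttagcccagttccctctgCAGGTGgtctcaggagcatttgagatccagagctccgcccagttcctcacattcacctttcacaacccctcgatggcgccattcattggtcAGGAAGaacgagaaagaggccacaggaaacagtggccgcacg

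The Bpifc promoter held TGACTCA, the NF-E2 and AP-1 letters, at 51 to 45 bases before the start, and none of the other 5 promoters held that motif. Of all 32851 promoter entries, 6.75% had it within the 250 bases before the start. An E-box was present in Bpifc, Adgrg3, Igfbp4 and Litaf (4 of 6, against 44.8% of all entries) and the ETS letters in Adgrg3 and Cd34 (2 of 6, against 29.5%). No member had the GATA (9.99% of entries) or RUNX letters (14.0%), and the Scin stretch had no match to any of the 5 motifs. No motif was shared by Scin and Bpifc in these windows, and no 2 matches overlapped.

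Estimated counts per library totalled 14531762 to 63109504, with a median of 21501831. Levels are given in CPM, counts scaled to the library total after TMM normalization, which corrects for RNA composition. Kit (24.5 to 97.3 CPM in DN3, 446 to 553 in 4 of the 5 DN2 libraries) and Cd44 (5.37 to 13.1 in DN3, 55.6 to 109 in DN2) followed the sort, and Il2ra (CD25) was present in both stages (144 to 1678 CPM). Arpp21 itself was 125 to 183 CPM in DN2 WT, 86.9 and 28.5 in DN2 KO, 312 to 386 in DN3 WT and 142 to 335 in DN3 KO, and these counts include reads from exons outside the deletion, so they do not check the genotype. DN2 KO replicate 2 and DN3 KO replicate 3 stood apart, with correlations of log2 CPM to the other libraries of their stage of 0.814 to 0.837 and 0.912 to 0.932. In DN2 KO replicate 2 the genes of the shortest of 5 transcript length bins had a median log2 difference of 1.51 from the other DN2 libraries and those of the longest bin one of -1.83, and Kit was at 66.6 CPM.

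In WT, Scin stood at 591, 913 and 940 CPM in the 3 DN2 libraries and at 97.1, 91.3 and 105 CPM in the 3 DN3 libraries. In KO it stood at 1287 and 972 CPM in DN2 and at 42.0, 40.0 and 30.3 CPM in DN3. Every DN3 KO library lay below every DN3 WT library, by 2.18-fold between the nearest pair, and both DN2 KO libraries lay above the DN2 WT libraries. The log2 change from DN2 to DN3 was -3.06 ± 0.28 (± SE) in WT and -4.92 ± 0.31 in KO, or 8.35-fold and 30.2-fold between means. The DN3 difference of KO from WT was -1.38 ± 0.26 and the DN2 difference 0.47 ± 0.29, and the latter was -0.22 on the log2(TPM + 1) scale. TPM, the quantifier's own unit, divides by transcript length, and on that scale the median difference of all genes was itself -0.46 in DN2 and -0.21 in DN3, against -0.06 and -0.01 on the main scale. In DN2 KO replicate 2 Scin was 169 TPM against 635 TPM in replicate 1 and 307 to 446 in DN2 WT.

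Nfe2 was at 283, 340 and 321 CPM in DN2 WT and 34.9, 30.8 and 28 CPM in DN3 WT. The KO values were 312 and 666 CPM in DN2 and 11.7, 12.1 and 15.7 CPM in DN3. DN2 KO replicate 1 fell among the WT libraries and replicate 2 was the highest of all, whereas the 3 DN3 KO libraries were all below the 3 DN3 WT libraries, by 1.79-fold at the closest. Its log2 change from DN2 to DN3 was -3.33 ± 0.32 in WT and -5.22 ± 0.36 in KO, and the DN3 difference of KO from WT was -1.25 ± 0.30. The DN2 difference of 0.63 ± 0.32 was 0.01 without DN2 KO replicate 2 and DN3 KO replicate 3, and -0.16 on the log2(TPM + 1) scale.

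Bpifc stood at 116, 112 and 116 CPM in DN2 WT and 6.80, 5.50 and 4.69 CPM in DN3 WT. DN2 KO cells had 131 and 229 CPM, and DN3 KO cells 3.09, 2.07 and 2.26 CPM, from 28 to 72 estimated counts a library. Again no DN3 KO library reached a DN3 WT library, with 1.52-fold between the nearest pair, and both DN2 KO libraries exceeded all DN2 WT libraries. From DN2 to DN3 Bpifc changed by -4.34 ± 0.32 (log2) in WT and by -6.18 ± 0.36 in KO. Its DN3 difference of KO from WT was -1.19 ± 0.30, and its DN2 difference of 0.65 ± 0.31 dropped to 0.21 without the 2 libraries that stood apart and was -0.11 on the log2(TPM + 1) scale.

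**Figure D1:**
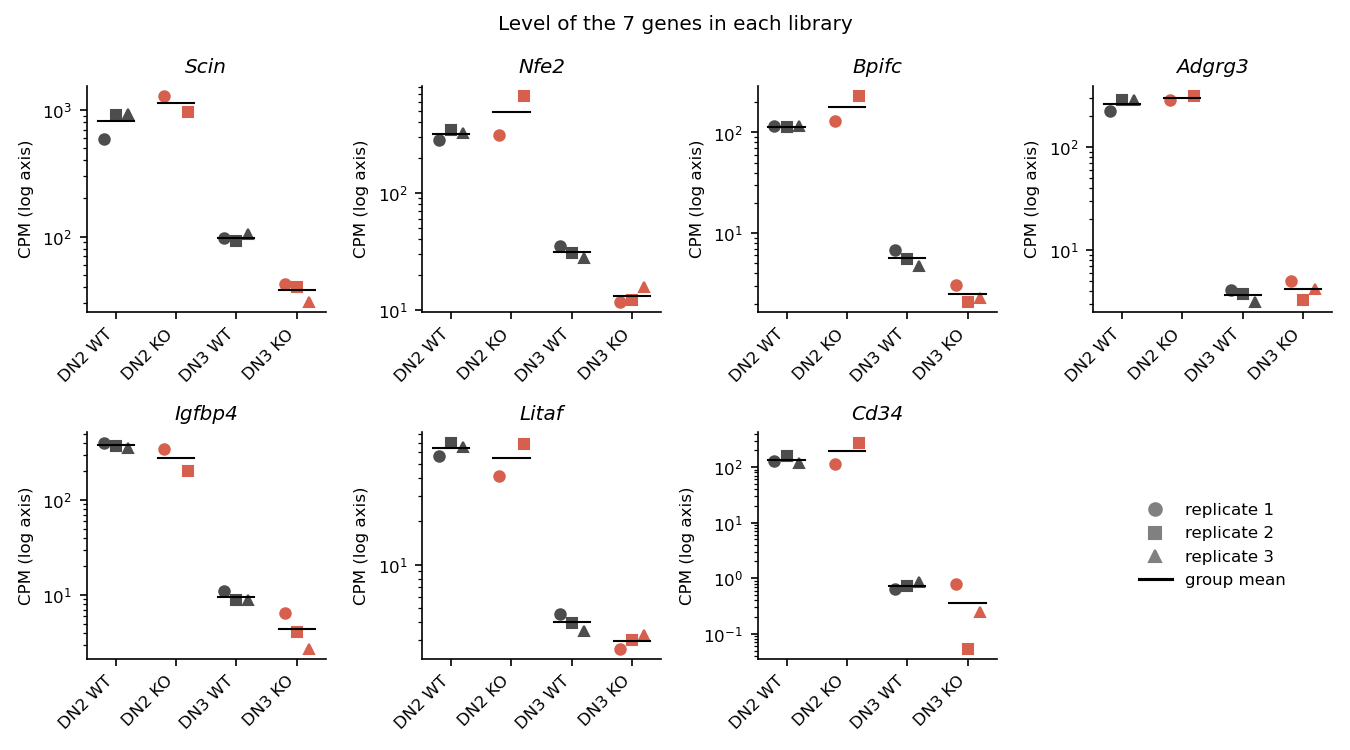
CPM of the 7 genes (log axis) in each library of DN2 WT, DN2 KO, DN3 WT and DN3 KO cells, with the group mean as a line and marker shapes for replicate numbers. In DN3 the KO libraries of Scin (30.3 to 42.0), Nfe2 (11.7 to 15.7) and Bpifc (2.07 to 3.09) lie below WT, and those of Adgrg3 (3.27 to 5.07) overlap WT (3.14 to 4.11).

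The difference between the genotype effects of the 2 stages (DN3 difference minus DN2 difference) was -1.85 ± 0.39 for Scin, -1.88 ± 0.44 for Nfe2 and -1.84 ± 0.43 for Bpifc. Without the 2 libraries that stood apart it was -1.94, -1.40 and -1.34, and on the log2(TPM + 1) scale, which compresses low levels, -1.35, -1.08 and -0.82. Ordered from the most negative value, they stood at places 518, 501 and 528 of the 13780 genes. The DN3 difference alone varied less, between -1.57 and -1.25 for Scin, -1.39 and -1.07 for Nfe2 and -1.39 and -0.92 for Bpifc over the 20 alternatives. It was negative in each of them, but the genes were chosen for this sign and the alternatives reuse the same libraries. The constant sign is therefore no independent evidence of the difference.

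Expressed as a share, DN3 WT cells held 12.0% of the DN2 WT mean of Scin, 9.92% of that of Nfe2 and 4.94% of that of Bpifc, and DN3 KO cells 3.31%, 2.69% and 1.38% of the DN2 KO mean. Without the 2 libraries that stood apart the KO shares were 3.18%, 3.82% and 1.97%, and in TPM they were 4.31%, 4.63% and 2.18% against 13.1%, 10.3% and 5.32% in WT. The share was lower in KO than in WT for these 3 genes in each of these calculations, which their choice bears on. This held also for Igfbp4 (1.62% in KO, 2.54% in WT) and Cd34 (0.184% and 0.546%, from 18, 1 and 3 estimated counts in DN3 KO). It did not hold for Adgrg3 (1.40% and 1.38%) in any of them. Litaf was lower in KO in CPM with all libraries (5.40% and 6.23%) but higher in TPM (9.01% and 7.73%) and without the 2 libraries (6.84% and 6.23%). In bulk RNA of sorted cells, fewer cells that hold a transcript and less transcript per cell cannot be told apart.

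**Figure D2:**
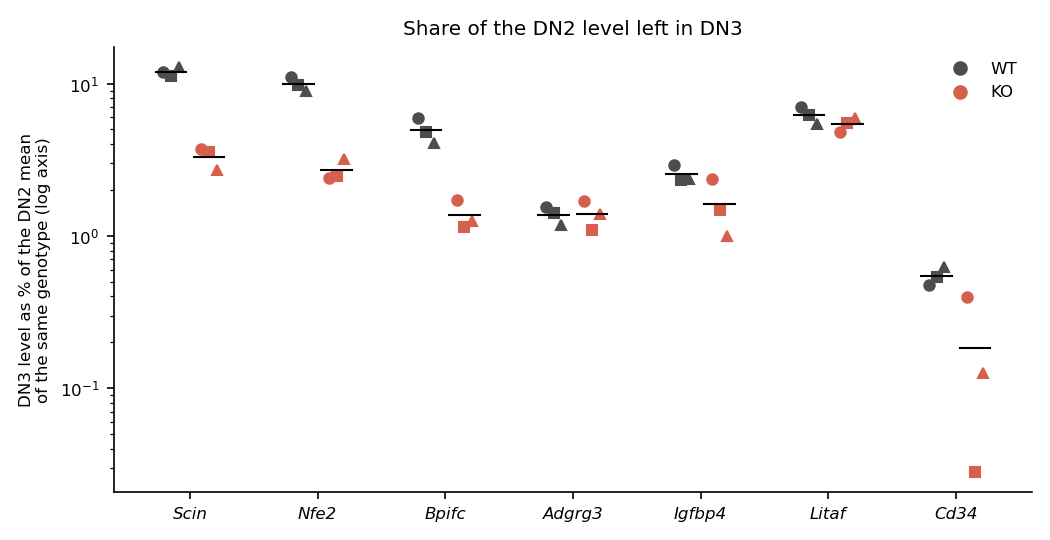
CPM in each DN3 library as a percentage of the DN2 mean of the same genotype (log axis), with the mean of the 3 libraries as a line and marker shapes for replicate numbers. Mean shares are 12.0, 9.92 and 4.94% in WT and 3.31, 2.69 and 1.38% in KO for Scin, Nfe2 and Bpifc, and 1.38 and 1.40% for Adgrg3. They are lower in KO also for Igfbp4 (2.54 and 1.62%, WT first), Litaf (6.23 and 5.40%) and Cd34 (0.546 and 0.184%).

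Adgrg3 fell 72.3-fold between means in WT and 71.5-fold in KO. It was at 224, 287 and 283 CPM in DN2 WT and 4.11, 3.75 and 3.14 CPM in DN3 WT. The KO libraries held 286 and 311 CPM in DN2 and 5.07, 3.27 and 4.20 CPM in DN3. The genotypes overlapped in both stages. The log2 change was -6.17 ± 0.30 in WT and -6.16 ± 0.31 in KO. The change in KO passed edgeR's quasi-likelihood test (adjusted p = 2.4e-05, Benjamini-Hochberg over the 13780 genes). The difference of KO from WT was 0.19 ± 0.25 in DN3 (adjusted p = 1.0) and 0.17 ± 0.27 in DN2 (adjusted p = 0.718), and both turned negative on the log2(TPM + 1) scale (-0.06 and -0.56). The difference between them was 0.02 ± 0.36 (adjusted p = 1.0).

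Igfbp4 was at 401, 373 and 354 CPM in DN2 WT, 349 and 200.6 CPM in DN2 KO, and at the DN3 stage 11, 8.78 and 8.89 CPM in WT against 6.49, 4.08 and 2.74 CPM in KO. In contrast to the 3 genes above, the KO libraries were below the WT libraries at both stages, in DN2 by only 1.02-fold at the closest. In TPM the groups overlapped in DN2 (262.1 to 321.5 in WT, 58.6 to 273.3 in KO) and in DN3 (7.48 to 7.73 in WT, 1.14 to 7.84 in KO). Igfbp4 fell by 5.94 ± 0.42 in KO (edgeR, adjusted p = 9.5e-05). Its DN3 difference of KO from WT was -1.10 ± 0.34, close to that of Bpifc. It did not pass edgeR's test over all genes (adjusted p = 1.0), with an unadjusted value of 0.00853. The DN2 difference was -0.45 ± 0.37 (adjusted p = 0.549) and the difference between stages -0.64 ± 0.49 (adjusted p = 0.964), and the latter was 0.10 on the log2(TPM + 1) scale.

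Litaf was at 56.5, 69.9 and 65.7 CPM in DN2 WT, 41.0 and 68.2 CPM in DN2 KO, and at the DN3 stage 4.52, 3.96 and 3.49 CPM in WT against 2.62, 2.99 and 3.23 CPM in KO. The DN3 KO libraries were below the DN3 WT libraries by 1.08-fold at the closest, and in TPM the groups overlapped. It fell by 4.21 ± 0.32 in KO (edgeR, adjusted p = 0.000153). The genotype differences were -0.44 ± 0.28 in DN3 (adjusted p = 1.0) and -0.23 ± 0.30 in DN2 (adjusted p = 0.675), and the difference between stages was -0.21 ± 0.40 (adjusted p = 0.964), positive without DN2 KO replicate 2 (0.17) and on the log2(TPM + 1) scale (0.42).

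Cd34 had the deepest fall of the 7. It was at 127, 158 and 118 CPM in DN2 WT and 114 and 273 CPM in DN2 KO, but at only 0.639, 0.725 and 0.840 CPM in DN3 WT against 0.773, 0.0544 and 0.242 CPM in DN3 KO. The DN3 KO values rest on 18, 1 and 3 estimated counts, and 3 counts were taken as the floor of detection, so the genotype difference in DN3 was not resolved at this depth. The log2 change in KO was -8.98 ± 0.79 (edgeR, adjusted p = 0.000368). The genotype differences were -0.95 ± 0.65 in DN3 (adjusted p = 1.0) and 0.53 ± 0.59 in DN2 (adjusted p = 0.635), the latter -0.21 without DN2 KO replicate 2 and -0.30 on the log2(TPM + 1) scale, and the difference between stages was -1.48 ± 0.88 (adjusted p = 0.964).

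**Figure D3:**
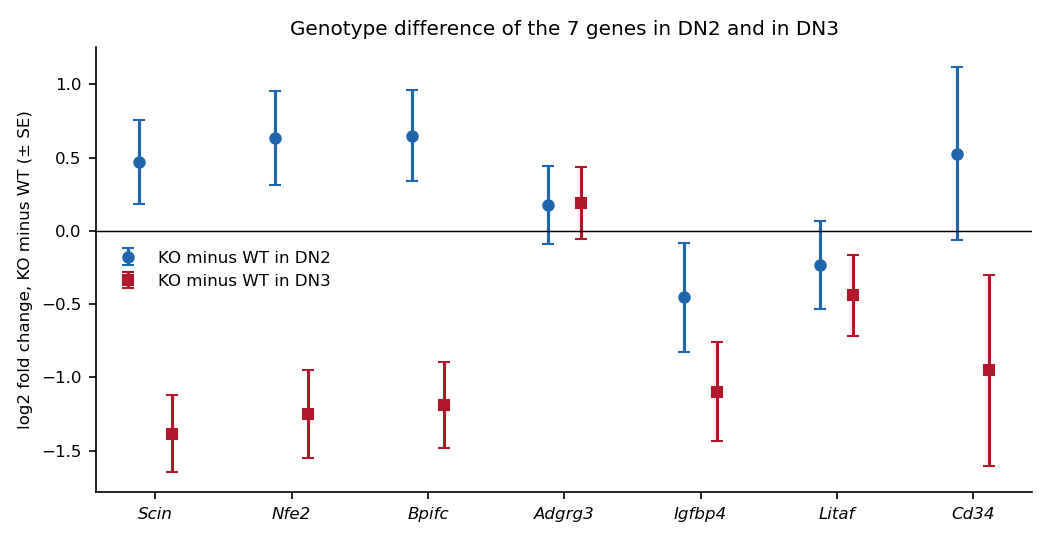
Log2 fold change of KO minus WT (± SE of the edgeR fit) of the 7 genes in DN2 (circles) and in DN3 (squares). Scin, Nfe2 and Bpifc lie between 0.47 and 0.65 in DN2, where the sign turned on the log2(TPM + 1) scale, and between -1.38 and -1.19 in DN3, and Adgrg3 lies at 0.17 and 0.19. Igfbp4 lies at -0.45 and -1.10, Litaf at -0.23 and -0.44 and Cd34 at 0.53 and -0.95, DN2 first.

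Set against all genes, 306 genes (2.22% of those tested) were called lower in DN3 than in DN2 in WT and 404 (2.93%) in KO, and Adgrg3, Igfbp4, Litaf and Cd34 were all 4 among the latter. When only the 5 KO libraries entered the fit, 0 genes were called and the adjusted p of these 4 genes lay between 0.0686 and 0.0806. None of the 4 was called for KO against WT in DN3, in DN2 or for the difference between stages, where edgeR called 1 (0.00726%), 0 (0.0%) and 0 (0.0%) of all genes, with 214, 2020 and 373 at an unadjusted p under 0.05. DESeq2 called 16, 38 and 10 genes in these comparisons and none of the 4, of which Igfbp4 in DN3 was the only value at an unadjusted p under 0.05 by either tool. In DN3 limma voom called 118 genes, so the count depended on the fit. At the same adjusted threshold the study reports more genes in DN3 than edgeR or DESeq2 called here, most of them lower in KO. Its methods name no test for them. The gene that edgeR called in DN3 was H2-Q6, named after its value was seen, a class I histocompatibility gene whose close relatives can share its reads.

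In DN3 the KO libraries were all below the WT libraries for Scin, Nfe2 and Bpifc, which their choice fixed, in CPM and in TPM. Of the 4 other genes, Igfbp4 and Litaf had this order in CPM, where 5.57% of all genes had it, and none of the 4 had it in TPM, where 8.32% of all genes had it. In DN2 both KO libraries were above all WT libraries in CPM for Scin and Bpifc, which the choice bears on, and for none of the 4 other genes (7.52% of all genes), and both were below for Igfbp4 (8.28% of all genes). In TPM none of the 7 had both DN2 KO libraries above WT (3.63% of all genes), and only Litaf had both below (10.9% of all genes).

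Per transcript length, the order of the members in DN2 WT was Scin (386 ± 71.8 TPM, mean ± SD, n = 3), Nfe2 (295 ± 6.69), Igfbp4 (285 ± 31.9), Adgrg3 (200.7 ± 16.1), Cd34 (78.1 ± 8.91), Bpifc (60.7 ± 5.55) and Litaf (43.6 ± 1.70). Nfe2 and Igfbp4 overlapped, and the libraries of the other neighbours did not. In DN3 WT Scin (50.7 ± 5.27 TPM) and Nfe2 (30.5 ± 3.40) remained well above Igfbp4 (7.61 ± 0.13), and Litaf (3.37 ± 0.72), Bpifc (3.23 ± 0.58) and Adgrg3 (2.68 ± 0.35) overlapped, with Cd34 (0.438 ± 0.08) the lowest. Scin and Nfe2, the 2 members highest in DN3 WT, were among the 3 chosen for the further decrease in KO.

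The counts came mostly from protein-coding transcripts in DN2, and less so in DN3 for some members. The main transcript of Scin made 97.3% of Scin counts in DN3 WT and 97.2% in DN3 KO. For Litaf, the coding transcripts fell to 4.02% of the DN2 level in WT and the others stood at 107%, so that the processed transcript Litaf-205 made 2.05% of Litaf counts in DN2 WT and 36.8% in DN3 WT. The coding transcripts of Cd34 fell to 0.295% of the DN2 level in WT and had 1 estimated count in all in the 3 DN3 KO libraries, under the floor of 3 counts, so no share is given there. The retained-intron transcript Cd34-204 made 44.3% of the 3 DN3 WT libraries' Cd34 counts and 95.5% of those of DN3 KO, which had no more than 18 Cd34 counts a library.

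Within Nfe2 the transcripts differed. The main transcript Nfe2-201 had 1969 estimated counts over the 3 DN3 WT libraries and 591 over the 3 DN3 KO libraries, and the short Nfe2-206 had 38.9 and 64.8. Nfe2-206 thus made 1.83% of Nfe2 counts in DN3 WT (0.757 to 3.13% per library) and 9.41% in DN3 KO (8.71 to 10.4%), with no overlap between the genotypes, against 4.82% in DN2 WT and 5.55% in DN2 KO. The shares divide reads that Nfe2 transcripts have in common, were chosen after their values were seen and were not tested.

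**Figure D4:**
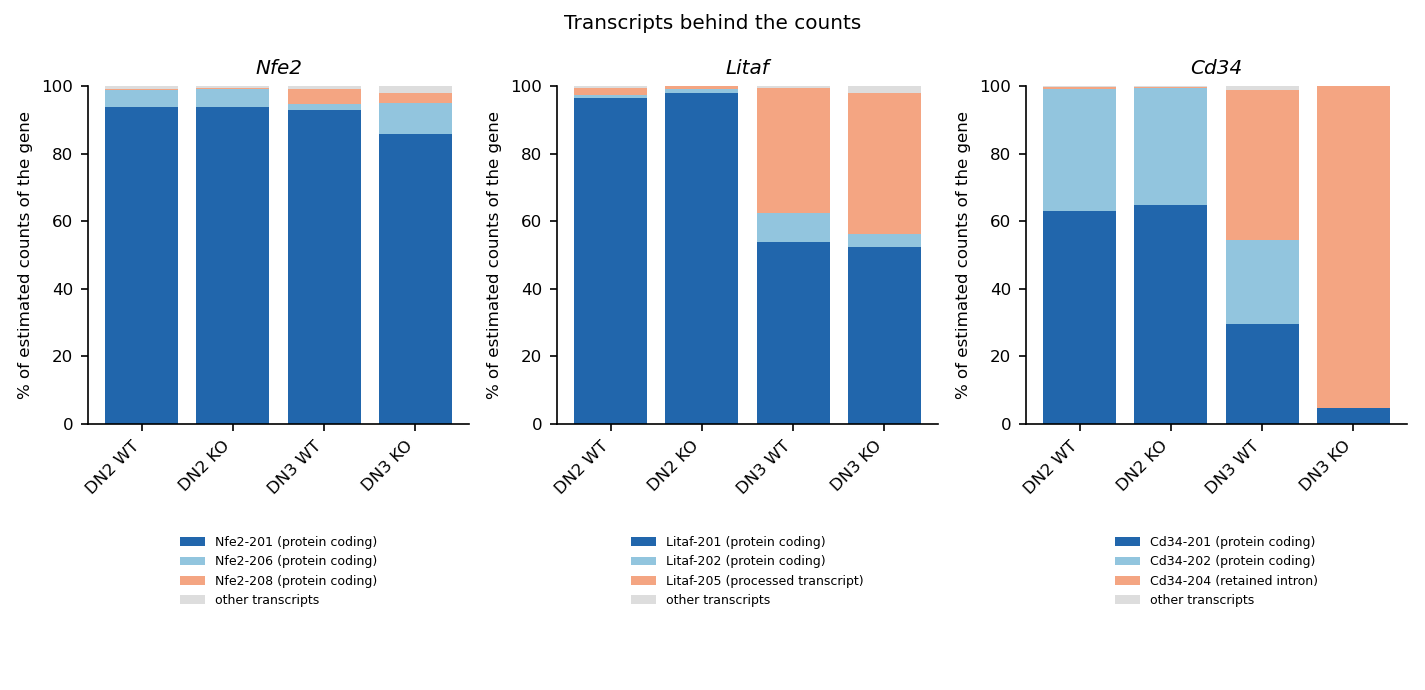
Percentage of the estimated counts of Nfe2, Litaf and Cd34 assigned to each transcript, summed over the libraries of a group. Litaf-205 grows from 2.05% in DN2 WT to 36.8% in DN3 WT, Cd34-204 makes 95.5% in DN3 KO, and Nfe2-206 makes 1.83% in DN3 WT and 9.41% in DN3 KO.

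Because the 2 libraries that stood apart differed from the rest by transcript length, the members were set beside genes of like length. The mean transcript length was 1647 nt for Nfe2 and between 2221 and 3146 nt for the other 6, that is, from percentile 26 to 62 of the genes tested. In DN2 KO replicate 2 Nfe2 lay 1.09 above the other DN2 libraries, with a median of 0.64 for genes of its length bin. Bpifc (0.95) and Cd34 (1.09) lay above the median of theirs (-0.21), as did Scin (0.11), Adgrg3 (0.21) and Litaf (0.25). Igfbp4 (-0.88) also lay above the median of its bin (-1.11). In DN3 KO replicate 3 Scin (-1.18), Bpifc (-0.83), Nfe2 (-0.44) and Igfbp4 (-1.41) lay below the medians of their bins (-0.10, -0.10, 0.26 and -0.51), a comparison that sets a KO library against WT libraries as well. Cd34 (-0.82) lay below its median of -0.10 too, Litaf (-0.10) at it and Adgrg3 (0.14) above it. The DN3 differences of Scin, Nfe2 and Bpifc without both libraries were -1.26, -1.39 and -1.12.

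**Figure D5:**
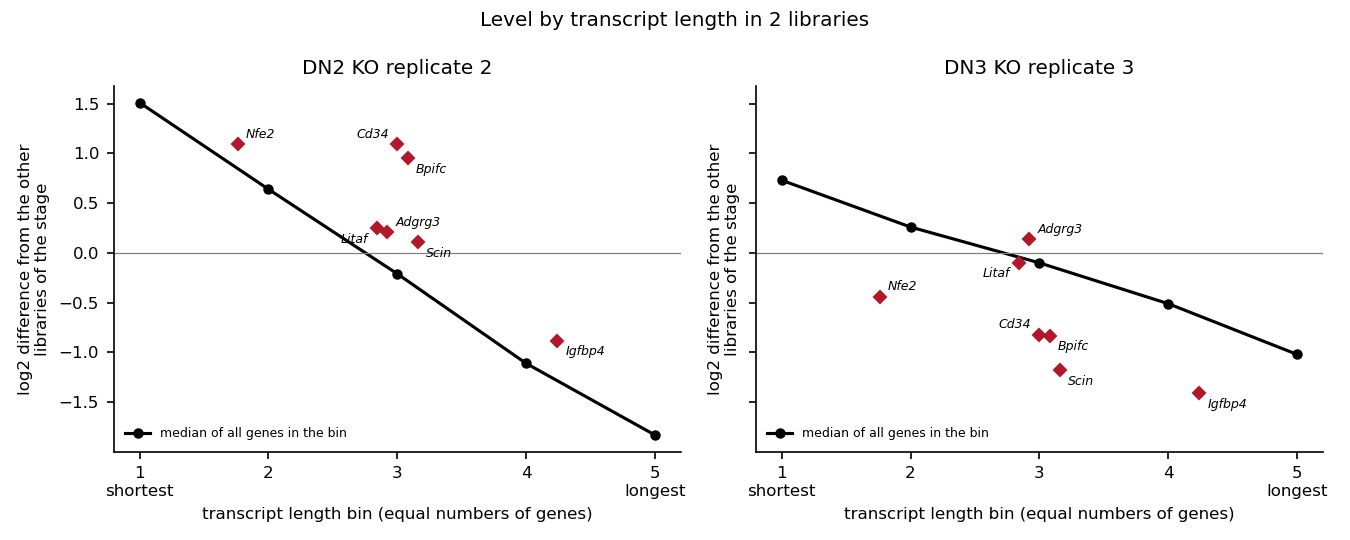
Log2 difference of DN2 KO replicate 2 (left) and DN3 KO replicate 3 (right) from the mean of the other libraries of their stage, as the median of each of 5 transcript length bins of equal gene number (black) and for the 7 genes (diamonds, spread sideways for legibility). The medians run from 1.51 to -1.83 on the left and from 0.73 to -1.02 on the right, and 6 of the 7 genes lie in bins 2 and 3.

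Because Arpp21 prefers uridine-rich RNA, the 3'UTR of each member's most abundant coding transcript was measured in GENCODE M21. Uridine made 38.7% of the 727 nt of Scin, higher than in 97.4% of the 12501 genes with a 3'UTR, and 34.2% of the 1079 nt of Bpifc, higher than in 85.4%. The 229 nt of Nfe2 had 26.2%, below the median of 29.1%. The members not chosen for a further decrease in KO lay at 25.1% (Adgrg3), 30.0% (Litaf), 30.3% (Igfbp4) and 30.7% (Cd34). The 3 genes thus did not share a high uridine content, and binding by Arpp21 was not analysed here.

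Among 11447 genes with a mean of at least 1 CPM, the profile over the 11 libraries closest to Scin (root mean square difference of centred log2 CPM) was that of Nfe2 (0.428), followed by Itgb7 (0.550), Litaf (0.551), Gbx2 (0.558) and Il4ra (0.562). Closest to Nfe2 was Lat2 (0.317), an adaptor of immune receptor signalling, with 85.2 and 145 CPM in DN2 and 9.04 and 4.92 CPM in DN3, WT first. Closest to Bpifc were Cst7 (0.344), an inhibitor of cysteine proteases in leukocytes, with 4.74 and 2.52 CPM in DN3 WT and KO, and Fut7 (0.441), a fucosyltransferase, with 1.77 and 0.802 CPM. Scin and Bpifc were 0.718 apart, and each stood at place 23 in the order of the other. These genes were selected for a profile that the choice of members already fixed, and nothing was tested on them.

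Relatives and partners of the members' products were read in the same fits. From 9 lists of related genes, chosen by family, partner or stage, 65 of 89 passed the filter, of which 11 were called lower and 9 higher in DN3 than in DN2 in WT, and 11 and 8 in KO. For KO against WT in DN3, in DN2 and for the difference between stages none was called, with 2, 4 and 1 at an unadjusted p under 0.05 by edgeR and 0 called by DESeq2.

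Of the progenitor transcription factors, which maintain the multipotent state, 7 of 14 were called lower in DN3 in WT and 7 in KO, with a median of -3.98 in WT against 0.01 for all genes. Spi1, the PU.1 gene, stood at 42.7 ± 4.65 CPM (SD, n = 3) in DN2 WT and 2.24 ± 1.37 in DN3 WT, a fall by 4.25 ± 0.51 on the log2 scale (edgeR, adjusted p = 0.00155). Hhex fell by 6.61 ± 0.61 (adjusted p = 0.000452). The list had a median difference of 0.0 between KO and WT in DN3, against -0.01 for all genes, with 6 genes lower and 6 higher. Of the 16 T lineage and DN3 genes (median 1.48), 8 were called higher in DN3 in both genotypes, among them Ptcra, the pre-TCR alpha chain (1.83 ± 1.01 to 398 ± 35.6 CPM in WT), and Rag1. Rag1 was at 914.5 ± 53.7 CPM in DN3 WT and 328.2 ± 89.0 CPM in DN3 KO. This difference of -1.48 ± 0.45 was not called (edgeR, unadjusted p = 0.00767, adjusted p = 1.0). The study reports significantly less Rag1 mRNA in DN3 KO cells by RT-qPCR. From its RNA-seq it also places Rag1 among the most reduced of the Arpp21-bound mRNAs in DN3 KO cells.

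The gelsolin family without Scin (median -0.36 from DN2 to DN3 in WT) had 1 of 5 tested members called lower in DN3 in each genotype, Gsn (gelsolin), which fell by 1.66 ± 0.37 in WT (edgeR, adjusted p = 0.0332), and Gsn differed by -0.23 ± 0.36 between KO and WT in DN3. Of 7 partners and relatives of NF-E2 tested (median -0.05), including the small Maf gene Mafk (84.7 ± 1.34 CPM in DN2 WT, 169 ± 7.84 in DN3 WT), none was called in any comparison. Of the 12 other BPI family genes only 2 passed the filter (median -1.62). Lbp fell in KO from 3.77 ± 3.44 (SD) to 0.124 CPM (edgeR, adjusted p = 0.0106). In WT it fell from 2.51 to 0.425 CPM and was not called (edgeR, adjusted p = 0.0919). Of 3 adhesion receptors related to Adgrg3 that were tested (median -4.73), Adgrg5 fell from 9.37 to 0.0304 CPM in WT (edgeR, adjusted p = 0.00325) and from 8.65 to 0.0286 CPM in KO (adjusted p = 0.00441). Adgrg7 fell in WT from 0.93 to 0.0304 CPM (adjusted p = 0.0369). It stood at 0.644 CPM in DN3 KO, 4.22 ± 1.07 (log2) above DN3 WT, and was not called there. The DN3 means of Lbp in KO, of Adgrg5 in both genotypes and of Adgrg7 in WT lay under the lowest floor of 3 counts (0.128 CPM in DN3 WT, 0.129 in DN3 KO). Adgrg1 was at 1717 ± 40.6 CPM in DN2 WT and 489 ± 32.7 in DN3 WT (adjusted p = 0.097).

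None of the 3 genes of the insulin-like growth factor system (median 0.51) or of the 8 genes of endosomal sorting (median -0.10) that were tested was called in any comparison. In the list of sialomucins related to Cd34, Podxl2 rose in WT from 0 in every DN2 library to 0.637 ± 0.454 CPM in DN3. The sialomucin Cd164 was at 280 ± 6.79 CPM in DN2 WT and 415 ± 38.1 CPM in DN3 WT (adjusted p = 0.175).

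Markers of other cells were read beside the members. The 5 mast cell and basophil markers summed to 514 to 911 CPM in DN2 WT, 405 to 843 in DN2 KO, 15.2 to 25.5 in DN3 WT and 5.89 to 12.8 in DN3 KO, and like Scin, Nfe2 and Bpifc they were lower in every DN3 KO than in every DN3 WT library. Nearly all of it was Cpa3, which early thymic progenitors also express (20.2 ± 5.75 CPM in DN3 WT, 7.18 ± 4.13 in DN3 KO), while Fcer1a was at 0 in every library and Mcpt8 at 0 in DN3. Among all single genes 5.57% had this order in CPM, and 14 marker lists were read. The sums of the 7 macrophage and dendritic cell markers overlapped between the genotypes in DN3, with a higher range in KO (29.1 to 37.1 CPM in WT, 34.6 to 47.8 CPM in KO). The 6 megakaryocyte and platelet markers summed to 20.0 to 25.7 CPM in DN2 WT and to at most 0.888 CPM in any DN3 library, and Gp1bb was at 0 throughout. The 8 early progenitor markers overlapped between the genotypes in DN3 (91.5 to 137 CPM in WT, 36.6 to 114 in KO). In DN2, where both KO libraries of Scin and Bpifc were above WT in CPM but not in TPM, the 6 erythroid markers summed to 20.6 to 56.1 CPM in WT and 89.6 to 248 CPM in KO, with no overlap. Most of it was Hbb-bs (28 ± 11.3 and 117 ± 77.4 CPM) and Hba-a1 (9.87 ± 6.68 and 49.4 ± 32.0 CPM). Among all single genes 7.52% had both DN2 KO libraries above WT in CPM. In DN2 KO replicate 2 genes of the shortest transcripts were raised (median log2 difference 1.51), and the part of transcript length in this sum was not tested. The part of these cells in the members' DN3 and DN2 differences was not tested.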

How the data were processed

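Per the labels and the study's methods, RNA of sorted thymocytes was amplified with SmartSeq V4, made into Nextera libraries and quantified with kallisto 0.46 on GRCm38 transcripts. The deposited tables give, for 119414 transcripts in each of 11 libraries, estimated counts, TPM and an effective length written by the authors' quantifier. The effective length entered only the alternative fit with a transcript length offset. Which mouse gave which library was not given in the sources used here.

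Estimated counts were summed per gene by GENCODE M21 (116728 transcripts matched, and 0.933 to 1.069% of counts lay on the others), rounded, filtered with filterByExpr (minimum count 10, total 15) and fitted for all 13780 genes in 4 groups with edgeR 4.0.16 (R 4.3.3), using TMM scaling and the quasi-likelihood test with Benjamini-Hochberg adjustment at 0.05. The SE was the fold change divided by the root of F. Fits were tested on simulated data. Alternatives were DESeq2 1.42.0, its size factors, no filter, limma 3.58.1 (voom, and trend on log2(TPM + 1)), only the libraries compared, a transcript length offset, a replicate block, leaving out each library, and leaving out DN2 KO 2 and DN3 KO 3 together. The members and gene lists were chosen with earlier results of these data known. Genes outside the members were named from these lists or as the 5 nearest profiles of Scin, Nfe2 and Bpifc, besides Arpp21, the sort markers and H2-Q6, which was named after its value was seen. The floor of 3 counts covers counting error only. The results of 2 genes of the lists are not reported here.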

Additional observations from a re-analysis of the deposited data

Results flagged for a closer look

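Scin and Bpifc had every DN2 KO library above every DN2 WT library and every DN3 KO library below every DN3 WT library in CPM, and the genotype effect in DN3 minus that in DN2 was -1.85 for Scin and -1.84 for Bpifc (log2). Because the genes were chosen for this pattern, the difference was not tested, and in TPM the DN2 groups of both genes overlapped. The summed erythroid markers were also higher in both DN2 KO libraries (89.6 to 248 CPM) than in DN2 WT (20.6 to 56.1 CPM), an order that 7.52% of all single genes had. Short transcripts were raised in DN2 KO replicate 2, and the part of the markers in the result was not tested.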

How the results depend on the processing

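Of 693 values of the 7 genes under the alternatives, 656 kept their direction and side of the threshold or moved by less than the replicate spread. On the log2(TPM + 1) scale the DN2 difference of KO from WT was -0.22 for Scin, -0.16 for Nfe2, -0.11 for Bpifc, -0.56 for Adgrg3 and -0.30 for Cd34, the DN3 difference of Adgrg3 was -0.058, and the difference between stages was 0.10 for Igfbp4 and 0.42 for Litaf. The near-zero difference between stages of Adgrg3 was -0.01 with DESeq2, -0.013 with its size factors, -0.11 with voom, -0.018 with the replicate block, and -0.03, -0.07, -0.04, -0.15 and -0.09 without DN2 KO 1, DN2 WT 2, DN2 WT 3, DN3 KO 1 and DN3 WT 3. Leaving out 1 library, the DN2 difference of Litaf ran from -0.62 to 0.08 (without DN2 KO 1), and its difference between stages from -0.52 to 0.17 (without DN2 KO 2), and was 0.11 without DN2 KO 2 and DN3 KO 3 together. The DN2 difference of Cd34 ran from -0.21 (without DN2 KO 2) to 1.01 (without DN2 KO 1), and was -0.21 without both. The cause was not tested.

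With only the libraries compared, the falls in KO of Adgrg3 (-6.17), Igfbp4 (-5.97), Litaf (-4.22) and Cd34 (-9.03) missed the threshold, so 0 of the 4 were called, and the difference between stages could not be fitted. All 4 were called without any 1 library. Genes called between stages in WT numbered 562 by edgeR, 1192 by DESeq2, 2326 by voom, 1946 with only the libraries compared, 216 with the block, 2226 without both libraries and 243 to 1080 without 1 library. In KO they numbered 595, 1600, 140, 0, 120, 896 and 281 to 6754. For the genotypes, DESeq2 called 16 genes in DN3, 38 in DN2 and 10 for the difference between stages, voom 118 in DN3, only the libraries compared 0 and the block 0 in DN3, and 5 were called in DN3 without both libraries. Without 1 library the counts ran from 0 to 1, 0 to 6777 and 0 to 3664, the highest of the last 2 without DN2 KO 1, when DN2 KO 2 alone stood for its group and was assumed to vary like the other groups. Of the related genes, 20 were called in WT by edgeR, 37 by voom, 35 with only the libraries compared, 10 with the block, 37 without both and 11 to 29 without 1 library. In KO 19 were called, 8 by voom, 0 with only the libraries compared, 8 with the block and 11 to 46 without 1 library. Voom called 2 in DN3, and without 1 library 0 to 38 were called in DN2 and 0 to 27 for the difference between stages.

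Whether equal replicate numbers pair the libraries was not settled. Deviations from the group means correlated at 0.289, 0.085 and 0.178 for equal numbers across the WT stages, against -0.218 to 0.066 for unequal numbers, so every WT library correlated best with its own number. Across the KO stages they correlated at 0.53 and -0.454, where the deviations of the 2 DN2 libraries mirror each other, and not every pair exceeded 0.1. The replicate block was therefore kept as an alternative only.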
